A study of Mus musculus with 27 samples.

Results

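The nuclear-encoded genes of the mitochondrial respiratory chain were followed in mouse embryonic stem cells as they lost Dicer, which cuts microRNA precursors into mature microRNAs. They were chosen by name: protein-coding genes whose symbol starts with Nduf, Uqcr, Atp5, Sdh or Cox with a number from Cox4 to Cox8, without Ndufa4l2 and without the genes of mitochondrial DNA. The rule found 96 of the 38123 genes in the deposited tables. They were 36 subunits and 8 assembly factors of complex I, 4 subunits and 4 assembly factors of complex II, 8 subunits of complex III, 19 subunits of complex IV and 17 genes named for ATP synthase. Complex IV subunits with other symbols, cytochrome c and assembly factors such as Acad9 lie outside the rule.

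All libraries came from the XY embryonic stem cell line DTCM23/49, which carries a conditional Dicer allele, grown with serum and leukemia inhibitory factor. Day 0 was sampled before the deletion was induced. The later groups came from cells in which 4-hydroxytamoxifen, given at 800 nM, had removed the RNase III domain and from which Dicer-deficient colonies were picked and expanded. Ethanol is named as the control treatment, but no later library is labelled as an ethanol control, so Dicer loss, the drug, colony picking and time in culture cannot be told apart. Polyadenylated RNA was sequenced from whole cells on days 0, 4, 8, 10 and 12 and from nuclear and cytoplasmic fractions on days 0 and 12, with 3 replicates in each of the 9 groups. The labels do not say that the replicates were separate cultures, so the tests measure the spread between these libraries, which may be technical.

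The respiratory chain passes electrons from NADH through complex I, or from succinate through complex II, to complex III, cytochrome c and complex IV, which reduces oxygen. Complexes I, III and IV pump protons across the inner mitochondrial membrane, and ATP synthase uses the gradient to make ATP. A few core subunits of complexes I, III and IV and of ATP synthase are encoded by mitochondrial DNA, which is outside the rule, while the nucleus encodes all of complex II. Embryonic stem cells in serum draw heavily on glycolysis, the pathway that splits glucose to pyruvate, and the glycolysis genes are therefore set beside the chain here.

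Values are FPKM, fragments scaled by transcript length and library size, and levels of different genes are compared on that scale only. FPKM is relative within a library, and in bulk samples fewer cells of a type and less RNA per cell cannot be told apart. A change is a difference on the log2(FPKM + 0.5) scale written as the value ± its standard error (SE), and a gene was called higher or lower when its Benjamini-Hochberg adjusted p from limma, over all genes tested, was below 0.05. Of the 96 genes, 92 passed the filter on low values in whole cells and 95 in the fractions. The 4 untested in whole cells were Cox6a2, Cox8b, Cox8c and Ndufb2.

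The libraries differed in ways that bear on these genes. Dicer1, read over the whole gene and not the deleted exons alone, was 15, 16 and 17.9 FPKM in whole cells at day 0 and 1.90, 1.90 and 1.68 at day 10. The whole cell libraries labelled day 12 held 16.7, 13.8 and 13.4 FPKM, at the level of day 0, whereas the cytoplasm at day 12 held 3.00, 2.73 and 3.45 against 23.5, 21.2 and 22.9. The course in whole cells is therefore read to day 10, and day 12 from the fractions. The members are short: the longest transcript of a gene had a median of 891.5 bases, and 53 of the 96 lay under 1000 bases. The ratio of short to long transcripts, taken as the median FPKM of genes under 1000 bases over that of genes above 4000 bases, put 3 libraries apart from their groups. They were replicate 3 of whole cells at day 4 (7.96 against 2.91 and 3.34), replicate 3 of the nucleus at day 0 (4.85 against 1.95 and 2.21) and replicate 1 of the nucleus at day 12 (1.08 against 2.09 and 2.28). Low FPKM values come in steps, from which depth relative to replicate 1 of day 4 in whole cells was 3.05 to 3.61 for whole cells at day 0 and between 0.722 and 1.8 elsewhere. Pluripotency markers were present in every group, with summed levels from 1095 to 4669 FPKM over 8 genes.

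As a whole, the respiratory chain genes were among the abundant mRNAs and lost little of their share of the library while the glycolysis genes lost much of theirs. In whole cells the 96 genes made up 2.38% to 2.54% of all FPKM at day 0, 2.28% to 2.34% at day 8 and 2.32% to 2.38% at day 10, the last just under the day 0 range. The 16 glycolysis genes made up 1.33% to 1.60% at day 0, 0.916% to 0.918% at day 8 and 0.684% to 0.724% at day 10, with no overlap between days 0 and 10. Without Gapdh, whose day 0 level is taken up below, the other glycolysis genes made up 1.14% to 1.37% at day 0, 0.876% to 1.16% at day 4 and 0.668% to 0.706% at day 10. In the cytoplasm the respiratory chain genes held 2.10% to 2.17% at day 0 and 1.97% to 2.10% at day 12, and the glycolysis genes 1.01% to 1.07% and 0.596% to 0.628%. Near-identical copies elsewhere in the genome, which can split or borrow reads, exist for 33 of the respiratory chain genes and for 9 of the glycolysis genes. The glycolysis genes without such a copy held only 0.0651% to 0.0790% of FPKM in whole cells at day 0 and 0.0480% to 0.0533% at day 10. At day 4 they held 0.0469% to 0.0736%, a range that spans the day 10 values. Their mean share went from 0.0703% at day 0 to 0.0513% at day 10. That is a smaller relative fall than over all 16, from 1.43% to 0.709%. Respiratory chain genes without a copy held 1.2284% to 1.2696% in whole cells at day 0 and 1.2612% to 1.2981% at day 10. These ranges overlap, and the small loss over all 96 genes in whole cells was not seen in this part. In the cytoplasm the share of this part was lower at day 12, at 1.0798% to 1.1361% against 1.1928% to 1.2218% at day 0. Over the genes without a copy, the ratio of summed respiratory chain to summed glycolysis FPKM was 15.7 to 19.0 in whole cells at day 0, 21.2 to 22.6 at day 8 and 24.0 to 27.1 at day 10. The cytoplasm went from 15.9 to 17.4 at day 0 to 20.5 to 22.7 at day 12. Whole cell libraries labelled day 12 lay at 16.5 to 18.8, inside the day 0 range. At day 4 it was 17.3, 19.4 and 34.6, and the highest value was that of replicate 3, the library rich in short transcripts.

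**Figure D1:**
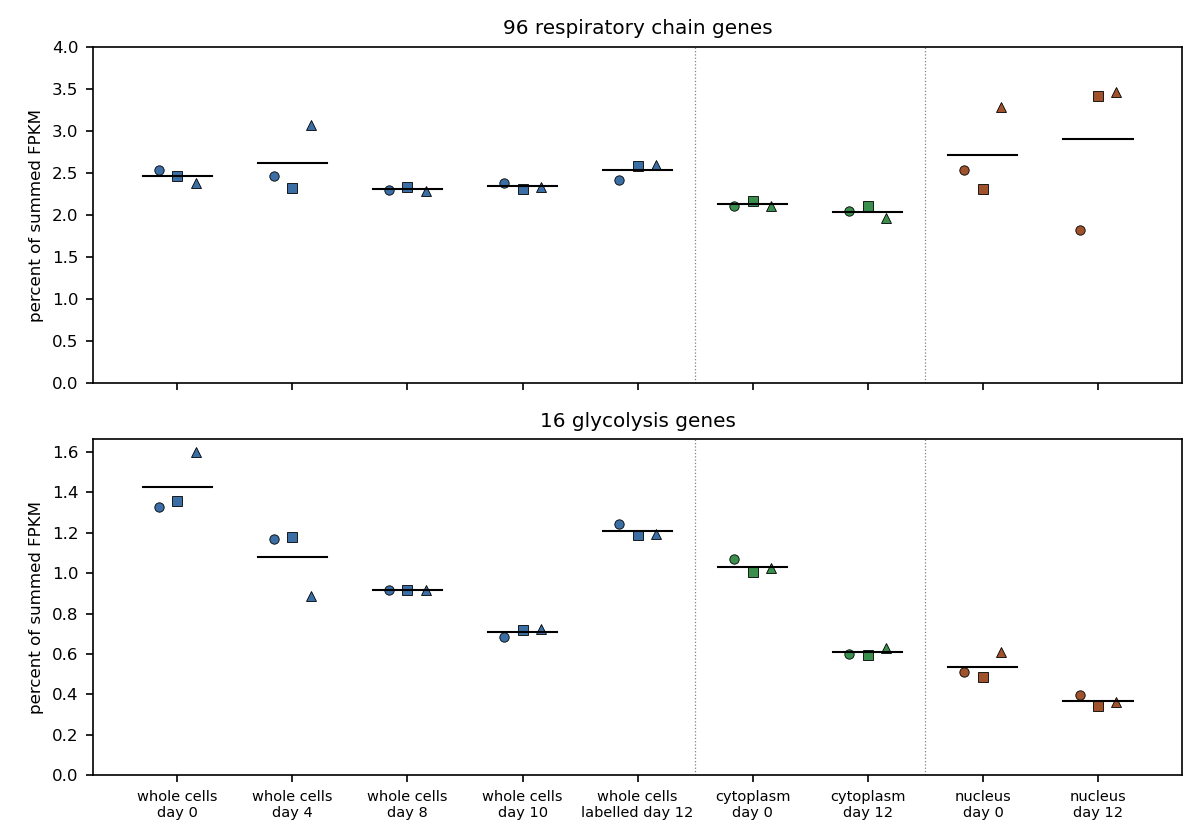
Share of all FPKM held by the respiratory chain genes and by the glycolysis genes (percent, y axis) in each of the 27 libraries, by group (x axis), with a point per library, its shape marking the replicate and its colour the extract, and a bar at the group mean. The respiratory chain share at day 10 in whole cells, 2.32% to 2.38%, lies just under the day 0 range, while the glycolysis share goes from at least 1.33% to at most 0.724%.

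Gene by gene, few members moved at first and a mixed set had moved by day 10. At day 4, 2 of the 92 tested genes were higher than at day 0 and 1 was lower, while 4.88% of all 15991 genes tested were higher and 1.82% lower. At day 8, 4 were higher and 11 lower, with 20.2% and 9.62% of all genes. At day 10, 8 were higher and 21 lower, with 27.7% and 16.0% of all genes, and 63 were not past the threshold. Members at day 10 were thus called higher less often (8.70%) and lower more often (22.8%) than all genes, and their median change was -0.18 against 0.09 over all genes. Transcript length moves with this: of the 784 tested genes with transcripts under 1000 bases, 27.8% were lower at day 10 and the median change was -0.21. Of the 50 tested members under that length, 11 were lower (22.0%) and their median was -0.20, so the members' share lay near that of other short transcripts. The split at day 10 also moved with the scaling, as did the shares of all genes. It was 4 higher and 23 lower with median-of-ratios factors, with 23.9% and 20.9% of all genes. With protein-coding genes alone it was 14 higher and 19 lower, with 33.7% and 13.1% of the genes tested. At day 8 the split became 8 higher and 11 lower with protein-coding genes alone, with 23.7% and 7.48% of the genes tested. The 5 days share 1 estimate of the spread. In whole cells replicate 3 of day 4 was the only library set apart by short transcripts. Without it, 12 members were higher and 37 lower at day 10, with 34.5% and 21.9% of all genes.

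Glycolysis genes stood well outside these numbers. At day 10, 13 of 16 were lower and 1 was higher, with a median change of -0.92. The counts were 0 higher and 4 lower at day 4, and 0 higher and 10 lower at day 8. Gapdh, which oxidises glyceraldehyde phosphate, was lower by the largest amount (-3.57 ± 0.12, adjusted p = 3.9e-10), but 141 near-identical copies make its level uncertain. It measured 744, 759 and 891 FPKM in whole cells at day 0 and 50.1, 52.3 and 47.7 in the cytoplasm of that day, and 81.6, 74.2 and 60.5 in whole cells at day 4. Its fall thus rests on a level in the day 0 whole cell libraries that the cytoplasm of day 0 does not show (0.06 ± 0.12, adjusted p = 0.75 in the cytoplasm at day 12). Against day 4, 1 of the 16 glycolysis genes was higher and 9 were lower at day 10, with a median change of -0.50, and Gapdh was not past the threshold (-0.11 ± 0.12, adjusted p = 0.49). Among glycolysis genes without a copy, Aldoc, an aldolase, and Pfkl, a phosphofructokinase subunit, were also lower at day 10 (-1.32 ± 0.11, adjusted p = 1.2e-06 and -1.29 ± 0.12, adjusted p = 2.8e-06). The muscle phosphofructokinase subunit Pfkm was the 1 that rose (0.53 ± 0.10, adjusted p = 0.0011).

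**Figure D2:**
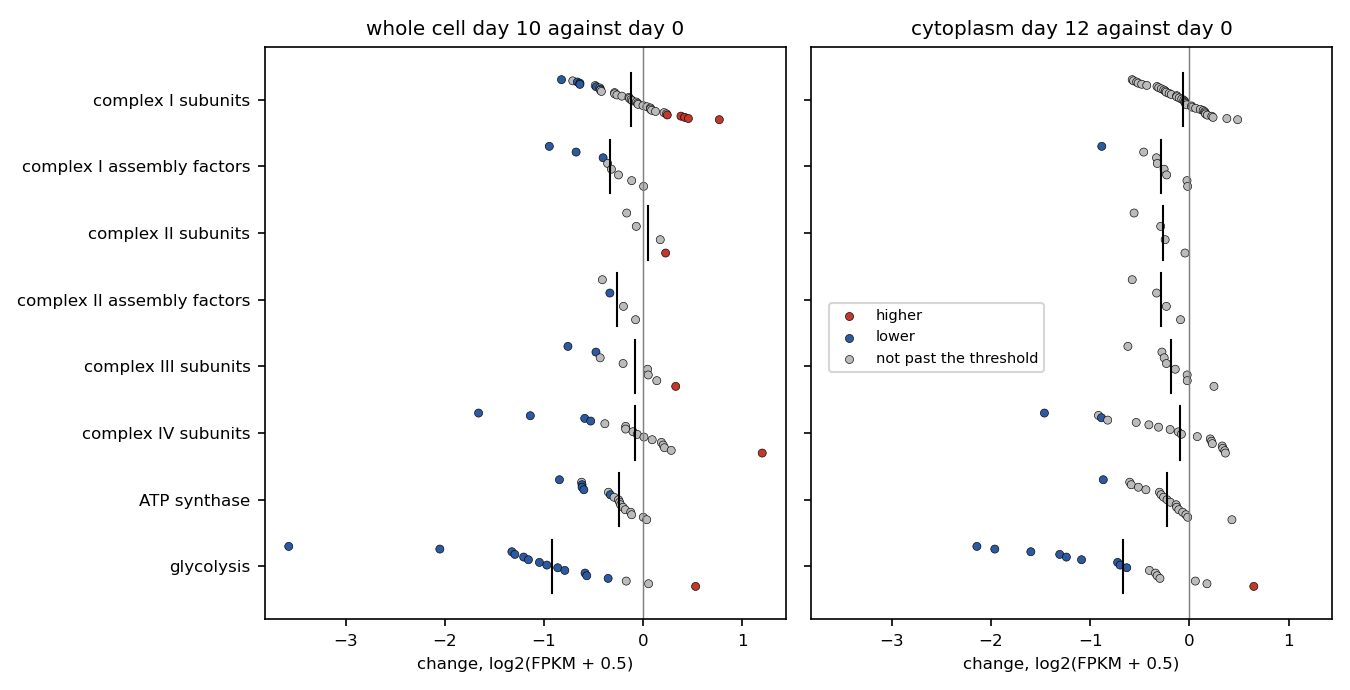
Change on the log2(FPKM + 0.5) scale (x axis) of each tested gene, by complex and for glycolysis (y axis), in whole cells at day 10 and in the cytoplasm at day 12, both against day 0. Points are genes, coloured by call, and the black bar is the median of the group. The glycolysis genes reach from -3.57 to 0.53 at day 10 around a median of -0.92, while each complex lies around a median between -0.34 and 0.05.

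The promoters of the chain have been a textbook case of shared control by the factors NRF1, GABP and YY1, and the sequences around the start sites are shown for members that moved in opposite directions at day 10. Promoters of 300 bases, from 250 before to 50 after the start, were found for 78 of the 96 genes in the RefSeq table on GRCm38.p6, 83 promoters in all. The words were searched on both strands: CGCATGCG for NRF1, which is its own reverse complement, CCGGAAGT for GABP and other ETS factors, and AAGATGGC for YY1. None of the words contains another, and capitals mark each match. Uqcrc1 (chr9:108936398-108936697, plus strand) and Ndufa9 (chr6:126849095-126849394, minus strand) were higher at day 10, and Uqcr11 (chr10:80406772-80407071, minus strand) and Cox6b2 (chr7:4753045-4753344, minus strand) were lower.
Uqcrc1: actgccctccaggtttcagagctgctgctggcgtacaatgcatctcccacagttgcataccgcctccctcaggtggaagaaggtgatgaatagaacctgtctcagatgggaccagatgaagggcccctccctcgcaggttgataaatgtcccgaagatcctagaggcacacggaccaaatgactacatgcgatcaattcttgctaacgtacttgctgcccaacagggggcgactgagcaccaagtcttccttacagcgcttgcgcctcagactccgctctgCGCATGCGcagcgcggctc
Ndufa9: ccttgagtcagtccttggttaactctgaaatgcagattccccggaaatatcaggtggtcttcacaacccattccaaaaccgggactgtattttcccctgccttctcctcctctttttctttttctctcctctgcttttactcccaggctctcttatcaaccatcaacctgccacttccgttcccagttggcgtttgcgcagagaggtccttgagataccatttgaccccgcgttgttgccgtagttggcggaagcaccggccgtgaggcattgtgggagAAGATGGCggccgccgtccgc
Uqcr11: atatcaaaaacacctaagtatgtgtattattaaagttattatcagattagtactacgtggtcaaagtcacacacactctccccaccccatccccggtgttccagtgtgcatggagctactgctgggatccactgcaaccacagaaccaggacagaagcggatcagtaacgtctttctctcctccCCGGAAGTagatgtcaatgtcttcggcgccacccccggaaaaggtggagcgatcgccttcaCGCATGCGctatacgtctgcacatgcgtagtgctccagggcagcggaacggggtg
Cox6b2: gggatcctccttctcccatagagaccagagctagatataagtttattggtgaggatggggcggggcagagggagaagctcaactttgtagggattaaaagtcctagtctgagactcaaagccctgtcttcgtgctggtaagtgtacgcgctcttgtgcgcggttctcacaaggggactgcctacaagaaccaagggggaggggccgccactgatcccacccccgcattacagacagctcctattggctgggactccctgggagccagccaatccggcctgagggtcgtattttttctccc

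The Uqcrc1 promoter holds the NRF1 word, that of Ndufa9 the YY1 word, that of Uqcr11 both the NRF1 and the GABP words, and that of Cox6b2 none in this window, nor do those of Cox7a2l and Ndufaf7. Over the members' promoters the NRF1 word occurred in 13.3%, against 3.64% of the promoters of genes tested in whole cells and 1.87% of all 32851 promoters. The YY1 word occurred in 12.0%, against 4.23% and 2.75%, and the GABP word in 6.02%, against 7.61% and 3.89%. Members' promoters held a median of 20 CpG, as did those of the tested genes. At least 1 of the words was found in 28.9% of the members' promoters and in 14.5% of those of tested genes. It was found in 5 of the 19 promoters of members lower at day 10 (26.3%) and in 3 of the 6 of members higher at day 10. With so few promoters the difference between these groups was not tested. A match is a string of letters and does not show binding.

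Within complex I, which takes electrons from NADH, core and accessory subunits differed in their counts. The 7 nuclear core subunits, which carry the flavin, the iron-sulfur clusters and the quinone site, held 3 higher and 0 lower genes at day 10, with a median of 0.23. The 28 tested accessory subunits held 2 higher and 6 lower, with a median of -0.14. These counts, and those of the assembly factors and other complexes below, stand beside the 27.7% and 16.0% of all genes given above. Of tested genes with transcripts under 1000 bases, 27.8% were lower. The difference between core and accessory subunits was not tested. Ndufs1, the large iron-sulfur subunit, and Ndufv1, the flavin subunit, were among the core subunits called higher at day 10. Ndufs1 went from 24.0, 25.3 and 24.1 to 29.5, 29.3 and 28.3 FPKM, groups that do not overlap (0.24 ± 0.07, adjusted p = 0.0097), though the call was lost under median-of-ratios scaling and quantile normalization. Ndufv1 went from 42.0, 38.2 and 44.8 to 51.7, 57.2 and 54.1 FPKM (0.38 ± 0.12, adjusted p = 0.024) and was not called after quantile normalization or without any 1 of replicates 1 and 2 of day 0 or replicates 2 and 3 of day 10.

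The accessory subunits surround the core and steady the complex. Ndufv3, a small subunit near the NADH site with no copy or overlapping gene, measured 106, 88.0 and 95.1 FPKM at day 0, 78.5, 81.0 and 102 at day 4, 54.9, 60.5 and 50.2 at day 8 and 56.6, 48.1 and 58.2 at day 10. The values at days 8 and 10 lay below all others of the course (-0.82 ± 0.12, adjusted p = 0.00013 at day 10), with the step falling between days 4 and 8. In the whole cell libraries labelled day 12 it was back at 89.0, 105 and 108 FPKM. The other accessory subunits called lower at day 10 were Ndufa12 (-0.66), Ndufa6 (-0.47), Ndufab1 (-0.64), Ndufb10 (-0.43) and Ndufb4 (-0.64). Near-identical copies exist for Ndufa12 (1), Ndufab1 (2) and Ndufb4 (1), so the levels of these genes are uncertain. The call for Ndufb4 was lost with no filter and without any 1 library of days 0 and 10 other than replicate 3 of day 0. That for Ndufa6 was lost without any 1 of replicates 1 and 3 of day 0 or replicates 2 and 3 of day 10, and that for Ndufa12 without replicate 1 of day 0 or replicate 3 of day 10. Ndufa9, which binds NADPH at the base of the peripheral arm, rose from 62.6, 60.5 and 60.5 to 87.1, 79.7 and 79.0 FPKM (0.42 ± 0.10, adjusted p = 0.0048), a call lost under median-of-ratios scaling. The other accessory subunit called higher was Ndufb8, described with the day 0 libraries below.

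Assembly factors build complex I and leave before it works. Of 8, 3 were lower at day 10, 0 were higher and the median was -0.34. Ndufaf7, a methyltransferase that acts during assembly, measured 16.7, 15.3 and 13.4 FPKM at day 0, 13.7, 15.6 and 17.7 at day 4, 10.6, 12.1 and 11.7 at day 8 and 10.1, 7.80 and 10.1 at day 10. Every day 10 library was below every day 8 library, which in turn were below all of day 0 (-0.68 ± 0.13, adjusted p = 0.00081 at day 10). Ndufaf2, a chaperone of late assembly, went from 61.1, 68.0 and 53.0 FPKM at day 0 to 39.2, 27.2 and 54.2 at day 4 and 32.7, 28.4 and 32.5 at day 10 (-0.95 ± 0.18, adjusted p = 0.00098), so its day 4 values already reached under day 0 in 2 of 3 libraries. An exon of Ndufaf2 is shared with an opposite-strand gene. The same holds for 31 of the 96 members, Ndufs1, Ndufa9, Atp5f1, Sdhaf2 and Atp5a1 among them. A further limit is an exon shared with a same-strand gene, found for 5 members including Ndufb8. Whether strand was used in counting is not given, so these levels may hold reads of the other gene. The third was Ndufaf8 (-0.40 ± 0.15, adjusted p = 0.039), which was not called when any 1 library of days 0 or 10 was left out.

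Complex II, which oxidises succinate and also belongs to the citric acid cycle, moved little in whole cells. Its 4 subunits together held 0.0583% to 0.0617% of all FPKM at day 0 and 0.0634% to 0.0662% at day 10. In the cytoplasm they held 0.0596% to 0.0635% at day 0 and 0.0509% to 0.0537% at day 12, though none was called there. Neither pair of ranges overlaps. The flavoprotein Sdha measured 60.8, 65.3 and 68.8 FPKM in whole cells at day 0 and 72.3, 78.4 and 77.3 at day 10. The change was 0.23 ± 0.08, adjusted p = 0.036 and was lost under 2 scalings, under the replicate block (adjusted p = 0.06) and when any 1 of replicates 1 and 2 of day 0 or replicates 2 and 3 of day 10 was left out. The iron-sulfur subunit Sdhb measured 70.1, 65.7 and 69.2 FPKM at day 0 and 66.5, 65.5 and 63.1 at day 10 (-0.07 ± 0.08, adjusted p = 0.51). The membrane anchors stayed within reach of the spread as well, with Sdhc at 25.6, 22.3 and 22.5 and 27.3, 24.8 and 27.3 FPKM (0.17 ± 0.12, adjusted p = 0.29). Sdhd measured 78.8, 84.5 and 74.8 and 70.0, 76.9 and 65.2 FPKM (-0.17 ± 0.11, adjusted p = 0.23). The 95% intervals of the day 10 changes were -0.24 to 0.10 for Sdhb, -0.10 to 0.44 for Sdhc and -0.40 to 0.06 for Sdhd. Of the 4 assembly factors, Sdhaf2, which attaches the flavin to Sdha, was lower (-0.34 ± 0.09, adjusted p = 0.011), a call lost with protein-coding genes alone and without replicate 2 of day 0.

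Complex III passes electrons from ubiquinol to cytochrome c, and 1 of its 8 subunits was higher and 2 lower at day 10. Uqcrc1, a core protein of the matrix side whose promoter is printed above, measured 218, 200.1 and 233 FPKM at day 0, 216, 253 and 221 at day 8 and 274, 268 and 274 at day 10 (0.33 ± 0.08, adjusted p = 0.0055), a call lost under median-of-ratios scaling. Uqcrq, a small subunit next to cytochrome b, measured 130.2, 125 and 121 FPKM at day 0, 121, 101 and 167 at day 4, 65.6, 63.5 and 64.3 at day 8 and 80.5, 70.3 and 71.0 at day 10. Its day 8 and day 10 values lay below all of day 0 and day 4 (-0.95 ± 0.15, adjusted p = 0.00035 at day 8 and -0.76 ± 0.15, adjusted p = 0.0011 at day 10), and 1 near-identical copy exists. Uqcrfs1, the Rieske iron-sulfur protein, measured 80.6, 88.0 and 79.1 FPKM at day 0 and 95.4, 86.4 and 90.8 at day 10 (0.14 ± 0.08, adjusted p = 0.19) and was not past the threshold. The lower gene beside Uqcrq was Uqcr11, a small subunit whose promoter holds both the NRF1 and the GABP words (-0.48 ± 0.13, adjusted p = 0.008). For Uqcr11, 2 near-identical copies exist.

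Complex IV hands the electrons to oxygen, and several of its nuclear subunits exist as tissue isoforms. Of the 16 tested subunits, 1 was higher and 4 lower at day 10. Cox6b2 is the testis isoform of the subunit that bridges the complex IV dimer, and here it was an abundant mRNA at 187, 121 and 131 FPKM in whole cells at day 0. It measured 129, 129.6 and 216 FPKM at day 4, 91.8, 107 and 98.8 at day 8 and 71.6, 56.2 and 68.1 at day 10. The day 10 libraries lay below every other whole cell library (-1.14 ± 0.20, adjusted p = 0.00045), whereas those labelled day 12 held 149.9, 166 and 174 FPKM. Its somatic partner Cox6b1 held 343, 324 and 293 FPKM at day 0 and 331, 319.8 and 312 at day 10 (0.01 ± 0.18, adjusted p = 0.98), and these groups overlap. Cox6b1 was the higher isoform in all whole cell and cytoplasmic libraries, but not in the nucleus at day 0, where it measured 292, 277 and 398 FPKM against 374, 389.6 and 1067 for Cox6b2. Cox7a2l, which joins complexes III and IV into supercomplexes, measured 107, 99.6 and 98.4 FPKM at day 0, 101, 93.1 and 164 at day 4, 80.5, 77.9 and 82.2 at day 8 and 69.0, 72.7 and 68.8 at day 10 (-0.53 ± 0.15, adjusted p = 0.013). Each step from day 4 to 8 and from 8 to 10 left no overlap between the libraries. The other lower subunits were Cox7b (-0.59 ± 0.14, adjusted p = 0.0045), for which 4 near-identical copies exist, and Cox7c, taken up with the day 0 libraries.

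Among the other isoforms, those of heart and muscle were at or near 0. Cox4i1, the common form of the largest nuclear subunit, measured 162, 163 and 151 FPKM at day 0 and 201, 196 and 183 at day 10, and Cox4i2, the form of lung and hypoxic cells, lay between 0.198 and 2.38 FPKM in all 27 libraries. The 2 levels are far apart in each library, so the common form made up nearly all of this subunit's mRNA. Cox6a2, the heart and muscle form, reached at most 2.25 FPKM, in replicate 3 of the nucleus at day 0, while Cox6a1 held 444, 412 and 429 FPKM at day 0 and 483, 474 and 502 at day 10. Cox8b, of heart and muscle, reached at most 0.832 FPKM and the testis form Cox8c at most 1.34, beside 310.5, 288 and 296 for Cox8a at day 0 and 337, 353 and 346 at day 10. Cox7a1, a further heart and muscle form, was the exception with 34.6, 24.9 and 24.0 FPKM at day 0 and 24.7, 20.7 and 27.9 at day 10 (-0.18 ± 0.29, adjusted p = 0.66).

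ATP synthase held 0 higher and 5 lower genes of 17 at day 10, with a median of -0.25. The 5 subunits of the F1 head, which holds the catalytic sites, had no call and a median of -0.12. Atp5b, the catalytic beta subunit, measured 495, 489.9 and 504 FPKM at day 0 and 519, 489 and 517 at day 10 (0.04 ± 0.07, adjusted p = 0.73). Atp5a1, the alpha subunit, measured 455, 440.4 and 486 and 457, 462 and 461 FPKM (0.00 ± 0.06, adjusted p = 1). These were, with Cox5b and Cox6a1, the 4 most abundant members at day 0, and Cox5b, a zinc-binding subunit of complex IV, measured 569.7, 549 and 534 FPKM at day 0 and 555, 509 and 521 at day 10 (-0.06 ± 0.14, adjusted p = 0.76). None of the 4 was past the threshold at day 10 in whole cells. All 5 lower genes belong to the membrane sector or the stalk. Atp5g1, which encodes the rotating c subunit, measured 51.2, 52.4 and 47.8 FPKM at day 0, 35.0, 32.5 and 49.5 at day 4 and 28.0, 29.0 and 26.7 at day 10 (-0.84 ± 0.13, adjusted p = 0.00021). Atp5l, subunit g, measured 241, 246 and 192 FPKM at day 0, 119, 122 and 125 at day 8 and 147, 160.0 and 133 at day 10 (-0.62 ± 0.21, adjusted p = 0.033). The others were Atp5f1, Atp5g2 and Atp5j2, with changes of -0.33, -0.60 and -0.62. Near-identical copies exist for all 5, Atp5g1 (4), Atp5l (14), Atp5f1 (1), Atp5g2 (2) and Atp5j2 (2), so these levels are uncertain. The call for Atp5l was lost under the replicate block (adjusted p = 0.053), with no filter and without any 1 of replicates 1 and 2 of day 0 or replicates 1 and 3 of day 10. That for Atp5j2 was lost with no filter and without any 1 library of days 0 and 10 other than replicate 3 of day 0, and that for Atp5f1 without replicate 2 of day 0. Over all complexes, the 60 tested members without a copy held 8 higher and 9 lower genes at day 10. The 32 with a copy held 0 higher and 12 lower, beside 27.7% and 16.0% of all genes.

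**Figure D3:**
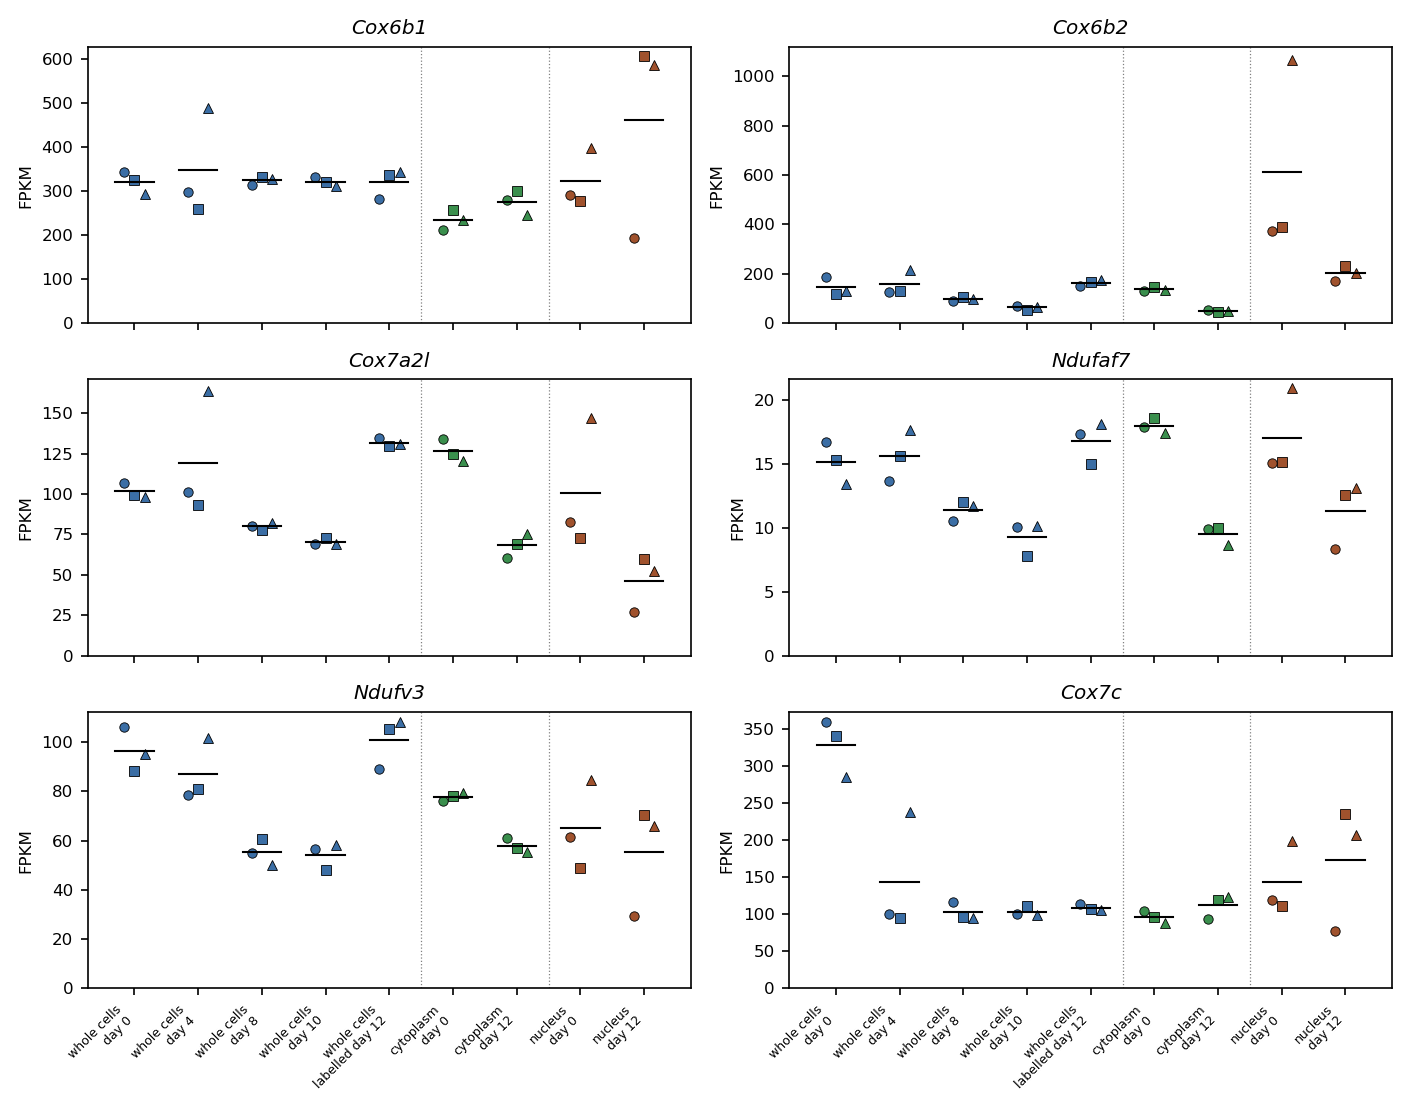
FPKM (y axis) of Cox6b1, Cox6b2, Cox7a2l, Ndufaf7, Ndufv3 and Cox7c in each of the 27 libraries, by group (x axis), with a point per library, its shape marking the replicate and its colour the extract, and a bar at the group mean. Cox6b2 falls to 56.2 to 71.6 FPKM in whole cells at day 10 and to 47.6 to 52.9 in the cytoplasm at day 12.

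The whole cell libraries of day 0 stood apart from all others for several members, so day 4 was also taken as the reference, a comparison added after the values had been seen. Cox7c, a small complex IV subunit with 4 near-identical copies, measured 359, 341 and 286 FPKM in whole cells at day 0. It measured 104, 96.2 and 88.5 in the cytoplasm and 119, 112 and 199 in the nucleus of the same day, and 99.7, 94.7 and 238 in whole cells at day 4. Its fall to day 10 (-1.66 ± 0.26, adjusted p = 0.00019) therefore rests on levels that neither fraction of day 0 shows. The reverse held for Cox7a2, the widely expressed counterpart of Cox7a1, at 51.7, 52.6 and 41.0 FPKM in whole cells, 102, 97.4 and 96.0 in the cytoplasm and 153, 137 and 205 in the nucleus at day 0, and 157, 124 and 272 in whole cells at day 4. Ndufb8, an accessory subunit of complex I, likewise measured 8.86, 8.78 and 6.68 FPKM in whole cells, 13.8, 12.9 and 12.9 in the cytoplasm and 19.5, 15.2 and 22.6 in the nucleus at day 0, and 15.3, 20.0 and 19.9 in whole cells at day 4. Both were called higher at day 10 against day 0 (1.20 ± 0.21, adjusted p = 0.00045 and 0.77 ± 0.12, adjusted p = 0.00022), and both were called lower against day 4 (-0.65 ± 0.21, adjusted p = 0.027 and -0.37 ± 0.12, adjusted p = 0.029). These 3 genes made up all 3 calls of day 4 against day 0, where 8 members were higher and 1 lower without replicate 2 of day 4 (6.09% and 2.59% of all genes), and 4 higher and 9 lower without replicate 3 (7.83% and 2.91%).

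Against day 4, the respiratory chain genes were lower more often. At day 8, 1 of 92 was higher and 13 were lower, with 13.2% and 6.72% of all genes, and at day 10, 1 was higher and 26 were lower, with 23.3% and 14.2%. The median change at day 10 was -0.31 for the members and -0.30 for all genes with transcripts under 1000 bases, of which 28.6% were lower. Replicate 3 of day 4 is the library richest in short transcripts, and its part in these counts was not tested. By complex, the lower genes at day 10 were 11 of 35 complex I subunits, all of them accessory, 3 of 8 complex I assembly factors, 0 of 4 complex II subunits, 1 of 4 complex II assembly factors (Sdhaf3), 1 of 8 in complex III, 4 of 16 in complex IV and 6 of 17 in ATP synthase. Cox6b2, Cox7a2l, Ndufaf7 and Ndufv3 were lower against day 4 as against day 0, with changes of -1.23 ± 0.20, adjusted p = 0.00038, -0.72 ± 0.15, adjusted p = 0.0027, -0.72 ± 0.13, adjusted p = 0.00078 and -0.67 ± 0.12, adjusted p = 0.001. The whole cell day 4 and day 0 comparisons share the day 10 libraries.

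In the whole cell libraries labelled day 12, 10 members were higher and 3 lower than at day 0, with 10.2% and 3.34% of all genes, and the median change was 0.14. The higher genes were led by Cox7a2, Ndufb8, the complex II assembly factor Sdhaf1 and Ndufv1, and the lower genes were Cox7c, Atp5l and Atp5f1. Sdhaf1 measured 8.56, 8.95 and 10.7 FPKM there against 5.63, 5.51 and 6.20 at day 0 (0.65 ± 0.18, adjusted p = 0.033), a call lost when any 1 library of either group was left out. Ndufv1 measured 65.0, 67.4 and 62.3 FPKM (0.63 ± 0.12, adjusted p = 0.0043), above all day 0 libraries. The count of calls dropped from 13 to 7 or 8 without any 1 of the 3 day 0 libraries or of replicates 2 and 3 labelled day 12. The split was 5 higher and 3 lower with median-of-ratios scaling, 11 and 6 with protein-coding genes alone and 7 and 6 after quantile normalization. With day 4 as the reference 2 were higher and 1 lower. Against day 0, glycolysis genes were 3 higher and 3 lower in the libraries labelled day 12. Ndufa4l2, which the rule leaves out and which is known as a hypoxia-induced relative of a complex IV subunit, measured 4.44, 2.68 and 4.25 FPKM at day 0, 0.163, 0.319 and 0.181 at day 10 and 9.12, 7.14 and 7.17 in the libraries labelled day 12.

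In the cytoplasm at day 12 no member was higher than at day 0 and 4 of 95 were lower, with 16.0% of all 17124 genes higher and 16.6% lower. The unadjusted limma p was below 0.05 for 0 members with a positive and 6 with a negative change. The 4 were Cox6b2, Ndufaf7, Cox7a2l and Atp5s, a coupling factor named for ATP synthase. Cox6b2 went from 132, 148 and 135 to 52.9, 47.6 and 48.9 FPKM (-1.46 ± 0.33, adjusted p = 0.0061). Ndufaf7 went from 17.9, 18.6 and 17.4 to 9.89, 10.0 and 8.70 FPKM (-0.88 ± 0.17, adjusted p = 0.0029). Cox7a2l went from 134, 125 and 120.4 to 60.6, 68.9 and 75.6 FPKM (-0.89 ± 0.30, adjusted p = 0.046), without overlap, but the call was lost when any 1 of the 6 cytoplasmic libraries was left out. Atp5s was low, at 5.31, 6.81 and 5.89 FPKM at day 0 and 2.83, 3.34 and 2.99 at day 12 (-0.87 ± 0.22, adjusted p = 0.012). The test shares its estimate of spread with the nuclear libraries. Without the 2 nuclear libraries set apart, the same cytoplasmic values gave 12 higher and 41 lower members, with 28.2% and 31.2% of all genes. In a fit of the 6 cytoplasmic libraries alone they gave 12 higher and 42 lower, with 30.7% and 33.9%. The median change was -0.18 for the members, -0.23 for all genes with transcripts under 1000 bases and -0.66 for the glycolysis genes, of which 1 was higher and 9 lower. With protein-coding genes alone 1 member was higher and 5 lower, with 19.9% and 15.6% of the genes tested.

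In the nucleus at day 12 the counts turned with single libraries. Over all libraries 0 members were higher and 10 lower than at day 0, with 15.1% and 21.6% of all genes and a median change of -0.25. Without replicate 1 of day 12, 17 were higher and 7 lower, with 16.5% and 20.8% of all genes, and without it and replicate 3 of day 0, 55 were higher and 9 lower, with 24.7% and 31.8% of all genes. The split was 4 higher and 11 lower with protein-coding genes alone, with 17.7% and 18.0% of the genes tested. After quantile normalization it was 4 and 9, with 17.5% and 18.4% of all genes. The 6 nuclear libraries fitted alone gave 0 and 1, with 5.34% and 7.20% of all genes. No direction is therefore given for the chain as a whole in the nucleus. Cox6b2 went from 374, 389.6 and 1067 to 173, 233 and 205 FPKM (-1.41 ± 0.33, adjusted p = 0.0074), and without the libraries set apart the change was -0.80 ± 0.08, adjusted p = 6.3e-05. Cox7a2l went from 82.4, 72.6 and 147 to 26.8, 59.6 and 52.5 FPKM (-1.12 ± 0.30, adjusted p = 0.016), and without those libraries the change was -0.46 ± 0.11, adjusted p = 0.0067. Both were lower at day 12 in every library, and both calls were lost in the fit of the nuclear libraries alone. Atp5s went from 13.6, 12.2 and 25.0 to 6.68, 7.42 and 7.32 FPKM (-1.12 ± 0.22, adjusted p = 0.0031) and was the 1 gene of the 10 that kept its call in every alternative run. Atp5e, the epsilon subunit of ATP synthase, went from 11.4, 11.1 and 26.4 to 5.38, 8.73 and 8.31 FPKM (-0.99 ± 0.29, adjusted p = 0.022) and was not called without replicate 1 of day 12.

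Cox6b2, Cox7a2l and Ndufaf7 were the 3 members called lower in all of whole cells at day 10, the nucleus at day 12 and the cytoplasm at day 12, and 0 were called higher in all 3. Of all genes tested, 16.0%, 21.6% and 16.6% were lower in these comparisons taken singly. The share of all genes lower in all 3 was not counted, so the overlap is not read as particular to the chain. Ndufaf7 in the nucleus measured 15.1, 15.1 and 21.0 FPKM at day 0 and 8.37, 12.6 and 13.1 at day 12 (-0.58 ± 0.17, adjusted p = 0.025), a call lost in the fit of the nuclear libraries alone, as for the other two, and without replicate 3 of day 0 or replicate 1 of day 12. None of the 3 has a near-identical copy or an overlapping exon. On GRCm38 Cox6b2 lies on the minus strand of chr7:4751792-4753094, Cox7a2l on the minus strand of chr17:83501918-83517330 and Ndufaf7 on the plus strand of chr17:78937136-78948052. Day 10 and day 12 differ in time and extract, and the labels do not say whether the fractions of a day came from the same cells.

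**Figure D4:**
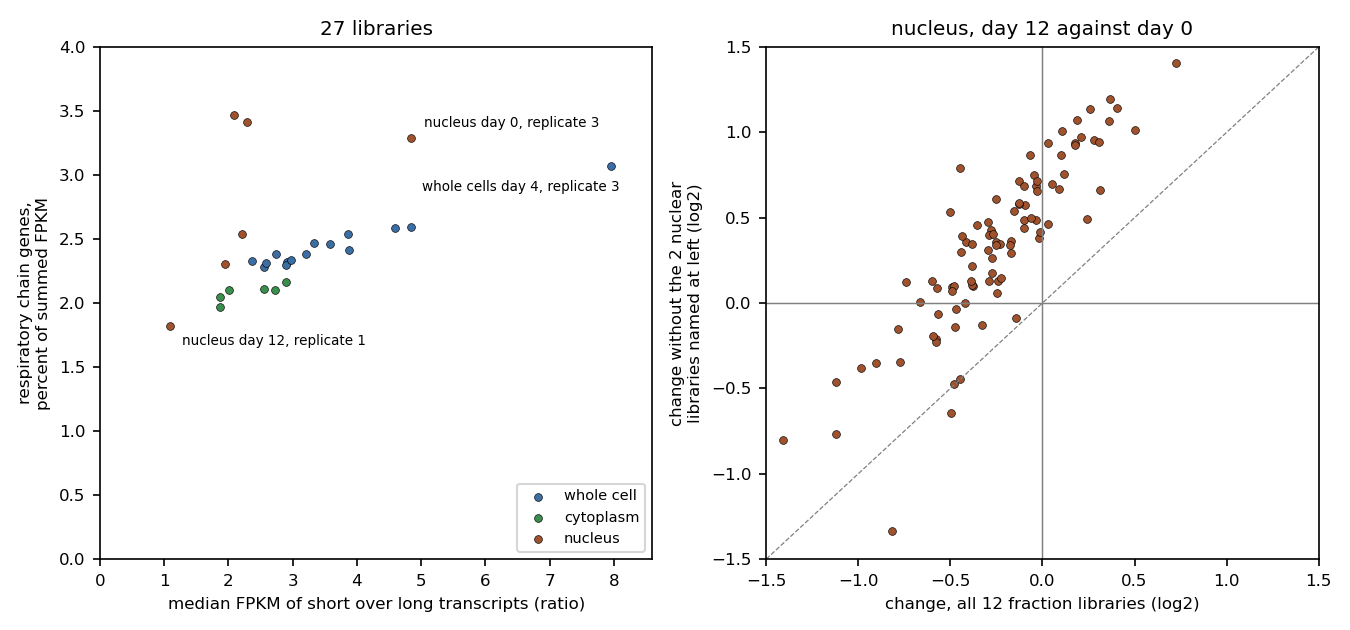
Left, share of all FPKM held by the respiratory chain genes (percent, y axis) against the ratio of short to long transcripts (x axis), with a point for each of the 27 libraries, coloured by extract. Right, change in the nucleus from day 0 to day 12 on the log2(FPKM + 0.5) scale for the 94 members tested both ways, over all fraction libraries (x axis) and without the nuclear libraries named at left (y axis), with a dashed line of equality: most points lie above the line, and the counts go from 0 higher and 10 lower to 55 higher and 9 lower.

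Between the fractions of one day, few members passed the threshold over all libraries. At day 0, 6 of 95 were higher in the nucleus and 6 in the cytoplasm, with 25.3% and 16.4% of all genes, and at day 12 the counts were 3 and 6, with 18.4% and 15.7%. Because FPKM is relative within a library, a higher value in the nucleus is a higher share of nuclear RNA and not a larger amount. Cox6b2 held the largest nuclear share relative to the cytoplasm on both days, at 374, 389.6 and 1067 FPKM against 132, 148 and 135 at day 0 (1.96 ± 0.33, adjusted p = 0.00086) and 173, 233 and 205 against 52.9, 47.6 and 48.9 at day 12 (2.01 ± 0.33, adjusted p = 0.001). Cox6a1 measured 931, 796 and 1468 FPKM in the nucleus and 332, 286 and 274 in the cytoplasm at day 0 (1.79 ± 0.40, adjusted p = 0.0045). Atp5s measured 13.6, 12.2 and 25.0 and 5.31, 6.81 and 5.89 FPKM (1.36 ± 0.22, adjusted p = 0.00073), and both genes were again higher in the nucleus at day 12. At day 12 the call for Atp5f1 was lost without replicate 2 of the cytoplasm and that for Sdhc without replicate 1 or 2 of the cytoplasm. The call for Cox6a1 at day 12 was lost without any 1 of replicates 2 and 3 of either fraction. On the cytoplasmic side, Atp5a1 measured 244, 213 and 344 FPKM in the nucleus and 501, 483 and 477 in the cytoplasm at day 0 (-0.89 ± 0.20, adjusted p = 0.0046) and 174, 255 and 244 and 393, 400.3 and 428 at day 12 (-0.88 ± 0.20, adjusted p = 0.0066). Atp5f1, Sdhc, Uqcrfs1 and Ndufs1 were also lower in the nucleus on both days, with changes of -0.79, -0.57, -0.52 and -0.48 at day 0, the call for Sdhc being lost without any 1 library other than replicate 3 of the nucleus, and that for Uqcrfs1 without any 1 of replicates 1 and 2 of the nucleus or 2 and 3 of the cytoplasm. Sdhd was lower at day 0 (-0.61 ± 0.22, adjusted p = 0.046) and not past the threshold at day 12 (-0.61 ± 0.22, adjusted p = 0.053), and the first call was lost in the same way as that of Sdhc. The assembly factor Ndufaf4, at 14.2, 15.3 and 10.2 FPKM in the nucleus and 6.02, 6.99 and 8.20 in the cytoplasm at day 0 (0.85 ± 0.27, adjusted p = 0.028), lost its call without any 1 of replicates 1 and 2 of either fraction.

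These counts also rest on the nuclear libraries named above. Without replicate 1 of the nucleus at day 12, 37 members were higher in the nucleus at day 12 and 6 lower, with 21.6% and 16.7% of all genes. Without all the libraries set apart the counts were 21 and 42 at day 0, with 37.1% and 26.9% of all genes, and 55 and 10 at day 12, with 33.2% and 26.8%. The split at day 0 was 17 and 6 with protein-coding genes alone, with 25.5% and 13.0% of the genes tested. After quantile normalization it was 12 and 7, with 15.6% and 24.0% of all genes. At day 12 it was 9 and 7 with protein-coding genes alone (20.4% and 12.4%) and 10 and 7 after quantile normalization (12.4% and 18.9%). The day 0 count dropped from 12 to 7 without replicate 1 of the nucleus or replicate 2 of the cytoplasm. The change of the ratio of nucleus to cytoplasm between the days was past the threshold for 0 of 95 members in limma, with 0.274% of all genes higher and 1.05% lower. The unadjusted p was below 0.05 for 2 members, the lowest adjusted p was 0.15, and the changes reached from -0.73 to 0.47. Without replicate 1 of the nucleus at day 12 the count was 3, with 4.05% of all genes higher and 5.85% lower. Without all the libraries set apart 68 were higher and 3 lower, with 17.1% and 21.6% of all genes.

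The neighbouring pathways at day 10 in whole cells did not move as a block with the chain. The counts below stand beside 27.7% of all genes higher and 16.0% lower. Of 14 citric acid cycle genes 8 were higher and 2 lower, among them citrate synthase, Cs (0.76 ± 0.07, adjusted p = 1.6e-06), and the mitochondrial isocitrate dehydrogenase Idh2 (0.84 ± 0.09, adjusted p = 8.6e-06), while the succinyl-CoA ligase subunit Suclg2 was lower (-0.57 ± 0.08, adjusted p = 9.6e-05). Of 14 genes that bring glucose, pyruvate and lactate to or past the mitochondrion 7 were higher and 3 lower, with the pyruvate carrier Mpc1 up (1.07 ± 0.09, adjusted p = 7.0e-07) and the lactate exporter Slc16a3 down (-2.18 ± 0.09, adjusted p = 3.3e-09). Of 29 tested assembly factors outside the naming rule 6 were higher and 8 lower, among them Acad9, a complex I assembly factor (0.88 ± 0.09, adjusted p = 6.8e-06), and the complex III assembly factor Uqcc2 (-0.78 ± 0.19, adjusted p = 0.0045). Of 12 regulators of respiratory genes 1 was higher and 2 lower, the lower ones being Tfam, which packages and transcribes mitochondrial DNA (-0.71 ± 0.10, adjusted p = 8.7e-05), and the ribosomal RNA methyltransferase Tfb1m (-0.59 ± 0.11, adjusted p = 0.00091). Cycs, the somatic cytochrome c that links complexes III and IV, was lower (-0.69 ± 0.24, adjusted p = 0.033).

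Markers of other cell types moved over the same days, and their part in these results was not tested. Over all genes, 27.7% were higher and 16.0% lower at day 10 in whole cells. Of 7 tested fibroblast markers 5 were higher and 1 lower at day 10, and the summed level of the 9 listed went from 128 to 156 FPKM at day 0 to 836 to 857 at day 10. Of 7 tested trophoblast markers 5 were higher and 1 lower, with sums of 146 to 195 and 515 to 551 FPKM. Of 7 tested endoderm markers 3 were higher and 0 lower, Col4a1, Col4a2 and Gata4, with sums over the 9 listed of 12.2 to 13.8 and 39.4 to 41.8 FPKM. Of the muscle and heart markers 3 of 4 tested were higher and 0 lower, with Myl2 below 0.5 FPKM in all libraries. Of the germ cell markers tested 1 was higher, Ddx4, and 3 were lower, Cox6b2 itself, Ldhc and Sycp3, while Tnp1 was at 0 in every library and Prm1 and Pgk2 below 0.5 FPKM. Of the 8 pluripotency markers 1 was higher and 1 lower.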

How the data were processed

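Per the file headers, the authors deposited FPKM values for 38123 genes in each of 27 libraries. TopHat2 2.0.9, Cufflinks 1.3.0 and the build mm9 are listed in the submitters' processing notes. Not given in the sources used here are the annotation, how reads with several matches were counted and whether strand was used. FPKM sums per library were 275545 to 459892, and read totals are unknown. Symbols, coordinates and lengths came from GENCODE M21 on GRCm38 by gene identifier, which gave 36253 genes a symbol. Copies are transcripts of another gene that match at least 80% of the coding sequence of 1 transcript of the gene with at least 90% identity. They were found with BLAST 2.17.0, for the members and the glycolysis genes only. Genes of the other lists, such as Cycs, were not checked for copies.

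The values were tested as log2(FPKM + 0.5) with limma 3.58.1 (eBayes with a trend) in R 4.3.3, in a fit of the 15 whole cell libraries and a fit of the 12 fraction libraries. A gene was tested if 1 group averaged 0.5 FPKM or more, which left 15991 and 17124. For low genes this scale understates a change. The step was tested on simulated data. Python 3.11.15 with pandas 2.3.3, numpy 2.4.6 and matplotlib 3.10.9 did the rest.

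Named members were, per comparison, up to 4 with the largest rise and up to 4 with the largest fall among called genes of at least 2 FPKM in 1 group whose groups do not overlap, the 4 most abundant members at day 0, Sdha to Sdhd and the complex IV isoforms. Uqcrc1, Uqcr11, Ndufv1, Ndufaf8, Sdhaf2, Cox7b and the remaining called genes given by their changes were named after their values were seen. The values of 1 member are not reported here, though it stays in the counts. The members and lists were chosen with earlier results of these data known. Alternatives were other pseudocounts, filters and scalings, a replicate block, fits of the compared groups alone and leaving out each library of the groups compared.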

Additional observations from a re-analysis of the deposited data

How the results depend on the processing

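The counts of members called are given here as totals. Each library of the groups compared was left out in turn, which does not test the other libraries of the same fit. In whole cells this gave 3 to 13 calls at day 4 (3 over all libraries), 13 to 15 at day 8 (15) and 21 to 28 at day 10 (29). The whole cell libraries labelled day 12 gave 7 to 9 (13). The nucleus gave 8 to 24 (10) and the cytoplasm 3 to 3 (4). Between the fractions there were 7 to 17 at day 0 (12) and 6 to 43 at day 12 (9). The change of their ratio gave 0 to 3 (0). Over all genes the same runs gave 735 to 1721 calls at day 4 (1071) and 5722 to 6072 at day 10 (6987). The nucleus gave 4783 to 6737 (6281) and the cytoplasm 4129 to 4216 (5574). Between the fractions there were 5495 to 8483 at day 0 (7152) and 4184 to 6576 at day 12 (5837). The ratio gave 24 to 1699 over all genes (227). Fitting only the groups compared gave 29 calls at day 8, 50 at day 10 and 31 for the libraries labelled day 12. It gave 1 in the nucleus, 54 in the cytoplasm and 20 between the fractions at day 0. Over all genes the same fits called 6606 of 15005 at day 8 and 8893 of 15259 at day 10. They called 3793 of 14897 for the libraries labelled day 12 and 2112 of 16849 in the nucleus. There were 9841 of 15221 in the cytoplasm and 5956 of 16353 between the fractions at day 0. Quantile normalization gave 8 at day 4, 29 at day 8, 44 at day 10, and 19 and 17 between the fractions at days 0 and 12. Of all 15991 genes it called 1223, 5331 and 7470 at days 4, 8 and 10, and 6779 and 5366 of 17124 between the fractions. It shifted the median of all genes by -0.17 at day 10. Protein-coding genes alone gave 7 at day 4 and 23 and 16 between the fractions, and shifted that median by 0.11 at day 10. Under this setting 456 of 12839 genes were called at day 4, and 5160 and 4403 of 13409 between the fractions. Median-of-ratios scaling gave 8 for the libraries labelled day 12, and day 4 as their reference gave 3. The totals over all genes for these runs are not given here. Leaving out the 3 libraries set apart by short transcripts, chosen after seeing the data, gave 13, 33, 49 and 35 calls for days 4, 8, 10 and the libraries labelled day 12, 64 in the nucleus, 53 in the cytoplasm, 63 and 65 between the fractions, and 71 for the ratio. Over all genes the same runs called 1721, 7036, 9052 and 4674 of 16031 in whole cells, in that order. In the fractions they called 9613, 10114, 10885, 10197 and 6580 of 17003. The cause of these shifts was not tested.

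Same-numbered replicates did not deviate together in all pairs, so the numbers were not taken to pair the samples. With the replicate block the counts were 3, 14, 27, 12, 9, 4, 11, 10 and 0 in the order above, each within 1.5 times of the count without it. Apart from day 4 as the reference, 16 of the 29 calls at day 10, 3 of the 4 in the cytoplasm and 1 of the 10 in the nucleus held in every alternative run. Against day 4, 14 of the 29 were called the same way, among them 10 of those 16, and Cox7a2 and Ndufb8 were called the other way (-0.65 and -0.37). FPKM gives no counts, so no counting error could be set on a single value.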
